A study of Homo sapiens and Mus musculus with 61 samples.

Results

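HS3 is an element of the locus control region, the distal enhancer of the human beta-globin genes, and is named as a DNase I hypersensitive site. The libraries described here were made with guides against HS3, and 4 of the 61 samples of the series carry one. They are sgHS3 replicates 1 to 3 and a single library of a second guide, sgHS3-sg2, each chosen by the column names of its own table. All 4 come from K562, a human erythroleukaemia cell line in which the embryonic and fetal globin genes are active. The comparison group in both tables is the same 4 libraries of K562 cells with sgGal4, a guide without a target in these cells, and all 8 libraries are from cells that express the biotinylated dCas9. The labels name no other treatment, time or genotype, and they number the replicates without saying that these are separate cultures. The p-values below thus rest on the spread among libraries alone, and that spread may be technical. The readout is DNA, so the cell line was not checked against marker genes.

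In CAPTURE-ChIP-seq, a nuclease-dead Cas9 with a biotin tag is brought to a genomic site by its guide RNA, pulled down on streptavidin beads and sequenced with the DNA bound to it. Cas9 binds where a short motif, NGG, follows a stretch with the letters of the guide. This motif is the PAM and the stretch is the protospacer, whose opposite strand pairs with the guide. Pairing starts at the bases next to the PAM, called the seed, so sites elsewhere in the genome that share the seed can also be bound. The locus control region lies upstream of HBE1, the embryonic globin gene, and its elements carry sites for the erythroid factors GATA1, NF-E2 and KLF1.

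The deposited tables list regions of 300 bp, 7777 for sgHS3 and 6296 for sgHS3-sg2, with a log2 level in every library. Whole read numbers could be recovered from these levels, and the reads in the listed regions were 88782, 40131 and 48690 in sgHS3 replicates 1 to 3 and 64239 in sgHS3-sg2. In sgGal4 replicates 1 to 4 they were 53873, 96738, 10182 and 9980 over the regions of sgHS3, and 47844, 84846, 8568 and 8288 over those of sgHS3-sg2. Replicates 3 and 4 of sgGal4 were the shallow ones, with 35.6% and 32.7% of the sgHS3 regions at 0 reads. These sums are not the sequencing depth, and a region that a table does not list has no value in it. The tables hold 3069 identical regions, 39.5% of those of sgHS3 and 48.7% of those of sgHS3-sg2. They were normalised separately, so tests were made within a table and no difference between the guides was tested.

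The guides pulled down neighbouring stretches of HS3. The region of sgHS3 was chr11:5305767-5306066 and that of sgHS3-sg2 was chr11:5306107-5306406 (hg19), 40 bp further on. Both lie within introns of long annotated transcripts of HBE1 and HBG2, and the nearest transcription start, that of HBE1, is 14592 and 14932 bp away. The sequences of the guides themselves were not used here, since no source used here gives them. The sequences below are read from the plus strand of GRCh37, which has the coordinates of hg19, and are shown because the regions elsewhere in the genome share letters with them. Capitals mark the protospacer and PAM, on the minus strand, whose 10 PAM-proximal bases recurred most often among the leading regions elsewhere, as described below.
sgHS3 region: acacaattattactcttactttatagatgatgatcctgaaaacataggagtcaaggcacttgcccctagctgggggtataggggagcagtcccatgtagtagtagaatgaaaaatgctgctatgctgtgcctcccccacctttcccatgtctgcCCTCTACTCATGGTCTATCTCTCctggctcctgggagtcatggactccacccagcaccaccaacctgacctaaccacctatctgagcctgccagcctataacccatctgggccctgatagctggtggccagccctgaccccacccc
sgHS3-sg2 region: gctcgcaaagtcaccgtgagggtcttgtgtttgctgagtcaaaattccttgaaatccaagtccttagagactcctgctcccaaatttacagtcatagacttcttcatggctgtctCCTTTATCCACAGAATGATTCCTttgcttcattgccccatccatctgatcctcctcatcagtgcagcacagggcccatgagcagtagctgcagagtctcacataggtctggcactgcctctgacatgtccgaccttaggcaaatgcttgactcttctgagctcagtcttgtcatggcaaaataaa
The marked protospacers lie at chr11:5305921-5305943 and chr11:5306222-5306244, centred 15.5 and 23.5 bp from the middle of their regions. Both strands were searched for short erythroid motifs. The GATA motif was counted only as GATAA, which the sgHS3 region lacked and the sgHS3-sg2 region held 1 time, within the marked protospacer. Of the other regions of the 2 tables, 32.3% and 33.1% hold it. The form GATAG was not counted, and the sgHS3 sequence above holds it, both within the marked protospacer and outside it. The counts thus do not compare the 2 regions for GATA sites. The KLF1-type motif (CACCC) occurred 2 times in the sgHS3 region and 0 times in that of sgHS3-sg2, against 54.4% and 53.4% of other regions. The AP-1-like motif (TGAGTCA), of the kind that NF-E2 binds, occurred 0 times and 1 time, against 6.78% and 5.05%. A match in letters is not a bound site.

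HS3 was the region with the largest difference from sgGal4 in both tables. With sgHS3 it held 5122, 697 and 723 reads in replicates 1 to 3, against 2, 4, 0 and 1 in the 4 sgGal4 libraries. These are 5.77% (95% Clopper-Pearson interval 5.62 to 5.92), 1.74% (1.61 to 1.87) and 1.48% (1.38 to 1.60) of the reads in listed regions. Intervals cover counting error only, and 0 reads in sgGal4 replicate 3 allow up to 3 reads. Every sgHS3 library was far above every sgGal4 library, and sgHS3 replicate 1 was above the other 2 by more than their intervals. The difference of mean log2 levels, guide minus sgGal4, was 8.49 (SE 0.775, n = 3 and 4, limma adjusted p = 0.00251). The mean log2 level was 10.51 ± 1.58 (SD) in sgHS3 and 2.01 ± 0.960 (SD) in sgGal4. A difference on this scale is not a log2 ratio of reads, because the authors' levels have a different slope and a different value for 0 reads in each library.

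With sgHS3-sg2 the neighbouring region held 1379 reads, 2.15% (2.04 to 2.26) of the reads in listed regions, against 7, 8, 1 and 0 in sgGal4. The difference was 6.96 (SE 0.474, limma adjusted p = 0.00306), with the single guide library assumed to vary like the sgGal4 libraries. The authors' deposited table tags the region as the on-target region of HS3-3, not of HS3. The only other region of the globin cluster that either table lists is chr11:5273371-5273670, which is intergenic and 2284 bp from the start of HBG1, a fetal globin gene. It held 4, 0 and 0 reads with sgHS3 and 1 with sgHS3-sg2, against 7, 14, 0 and 2 in sgGal4. Its difference was -1.49 with sgHS3 (adjusted p = 0.0787) and -2.71 with sgHS3-sg2 (adjusted p = 0.00664, limma). The value for sgHS3-sg2 rests on 1 guide library, which was not below every control. Its call was lost on the scale of log2(reads + 1) (adjusted p = 0.0805), where the sgHS3 value passed instead (-2.40, adjusted p = 0.00902). No other region of the cluster is listed in these tables.

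Outside the globin cluster, 9 of 7775 regions (0.116%) were higher with sgHS3 by at least 1 at a limma p of at most 1e-05. They lie in introns of GRM8, SPATS2, MEF2A, MAP3K5, EHBP1, WASF2 and FAM20B and in intergenic sequence nearest to HIVEP2 and FAM83C, and none lies within 1 kb of a transcription start or in an exon. HIVEP2 encodes a zinc-finger transcription factor, GRM8 a glutamate receptor, MEF2A a transcription factor of muscle and other tissues, MAP3K5 a stress-activated kinase and WASF2 a regulator of actin assembly. In the text each region is called by the gene of its nearest start, except that the region in the MAP3K5 intron, nearest to MAP7, is called by MAP3K5.

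The HIVEP2 region, chr6:142942824-142943123, held 2031, 291 and 369 reads with sgHS3 against 1, 4, 1 and 1 in sgGal4, a difference of 7.33 (SE 0.828, adjusted p = 0.00326, limma). The GRM8 region, chr7:126342515-126342814, held 920, 142 and 157 against 2, 7, 1 and 0 (6.16, SE 0.690). The FAM83C region, chr20:33887600-33887899, held 1308, 172 and 216 against 6, 6, 1 and 1 (6.02, SE 0.687). In these 3 regions, as at HS3, sgHS3 replicate 1 was the highest library and no sgGal4 library passed 7 reads.

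Replicate 1 also held the most reads in the next 3, by a smaller factor. The MEF2A region, chr15:100154980-100155279, held 310, 78 and 97 reads with sgHS3 against 7, 6, 0 and 0 in sgGal4 (difference 5.04, SE 0.532). The SPATS2 region, chr12:49822719-49823018, held 165, 58 and 63 against 1, 2, 0 and 0 (5.32, SE 0.62). The FAM20B region, chr1:179016184-179016483, held 163, 97 and 128 against 9, 25, 2 and 1 (3.77, SE 0.450). All 3 lie in introns, and guide and control libraries did not overlap in any of them. As a share of the reads in listed regions, replicate 1 was the highest at MEF2A (0.349%, 0.194% and 0.199%) and the lowest at FAM20B (0.184%, 0.242% and 0.263%).

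In the remaining 3, replicate 1 again held the most reads. Its ratio to the mean of replicates 2 and 3 was 1.46 at MAP3K5, 1.21 at EHBP1 and 1.46 at WASF2, against 1.45 at FAM20B. The MAP3K5 region, chr6:136931479-136931778, held 123, 71 and 97 reads against 4, 6, 1 and 0 (4.53, SE 0.495). The EHBP1 region, chr2:63194197-63194496, held 63, 43 and 61 against 3, 5, 0 and 0 (4.17, SE 0.461). The WASF2 region, chr1:27814540-27814839, held 78, 41 and 66 against 4, 8, 0 and 1 (3.80, SE 0.483). All 9 rose at adjusted p values of 0.00326 to 0.00639. With 5 added to the reads before the log, MAP3K5 (adjusted p = 0.0854) and EHBP1, WASF2 and FAM20B (0.0979 each) no longer passed 0.05 in limma. WASF2 also lost this call without sgHS3 replicate 2 (0.0546) or 3 (0.0644).

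**Figure D1:**
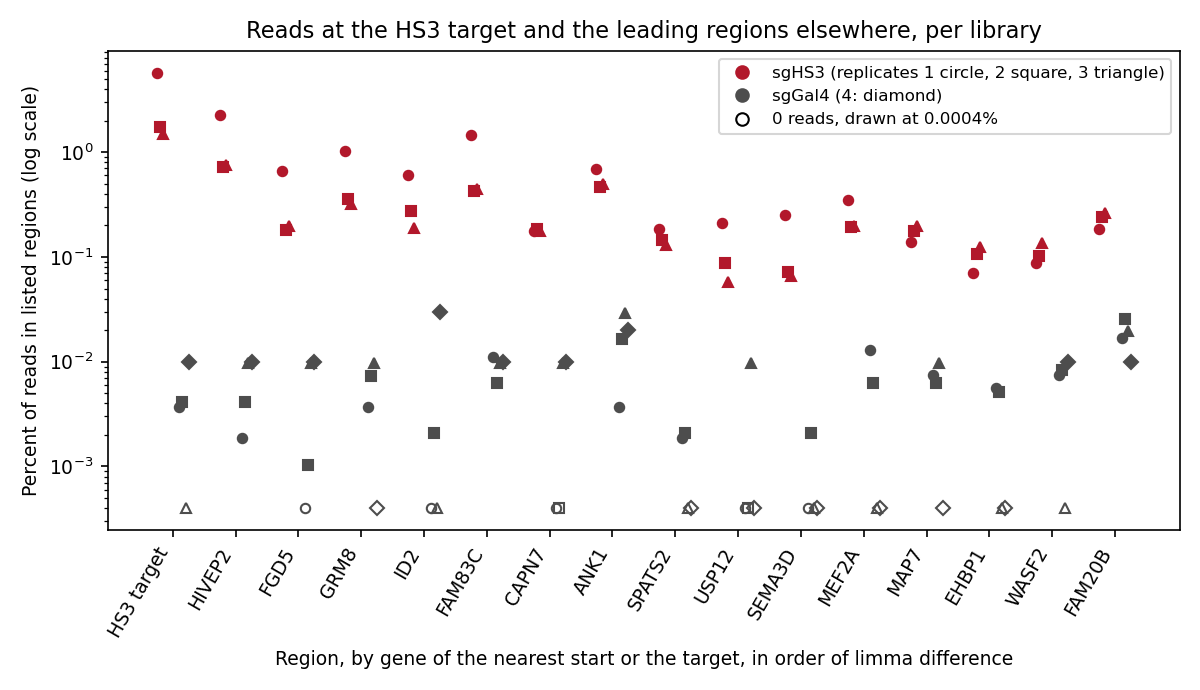
Percent of the reads in listed regions (log axis) for the HS3 target and the 15 leading regions elsewhere in the sgHS3 table, in order of the difference. Red symbols are the 3 sgHS3 libraries, grey symbols the 4 sgGal4 libraries and open symbols 0 reads. In every region all sgHS3 libraries lie above all sgGal4 libraries. The lead of replicate 1 (circles) is wide at HS3, HIVEP2, GRM8 and FAM83C. It is absent at MAP3K5 (drawn as MAP7), EHBP1, WASF2, FAM20B and CAPN7.

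Of the 10 regions with the largest difference, 6 did not pass the p limit. They are nearest to FGD5 (6.18), ID2 (6.15), CAPN7 (5.79), ANK1 (5.39), USP12 (5.32) and SEMA3D (5.17). ID2 encodes an inhibitor of basic helix-loop-helix factors and ANK1 the ankyrin of the red cell membrane. The FGD5 region, chr3:14864836-14865135, held 582, 72 and 96 reads with sgHS3 against 0, 1, 1 and 1 in sgGal4. The ANK1 region, in an intron 47239 bp from its start, held 617, 185 and 243 against 2, 16, 3 and 2. All 6 passed an adjusted p of 0.05, with values of 0.00804 to 0.0223, and none did so when any one of the sgHS3 replicates was left out.

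At the wider limit of a difference of at least 1 and an adjusted p below 0.05, 500 regions (6.43%) rose with sgHS3. Their differences ran from 1.45 to 7.33, with a median of 55 reads over the 3 sgHS3 libraries and 7 over the 4 sgGal4 libraries. Regions within 1 kb of a transcription start made up 32.8% of them, against 26.4% of all regions, and introns 37.6% against 31.5%. In the other direction 759 regions (9.76%) fell, of which 2.11% lay within 1 kb of a start, and the median over all regions was 0.17. On log2(reads + 1), scaled to the reads in listed regions, 275 rose and 2221 fell, with a median of -0.59 over all regions, and with 5 added in place of 1, 16 rose and 0 fell. Each count rests on all libraries. Without sgHS3 replicate 1, 2 or 3 the 9 became 0 in each case, the 500 became 11, 8 and 8, and the 759 became 0. Without sgGal4 replicates 1 to 4, the 9 became 6, 7, 7 and 5, the 500 became 91, 206, 764 and 818, and the 759 became 96, 377, 616 and 641.

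**Figure D2:**
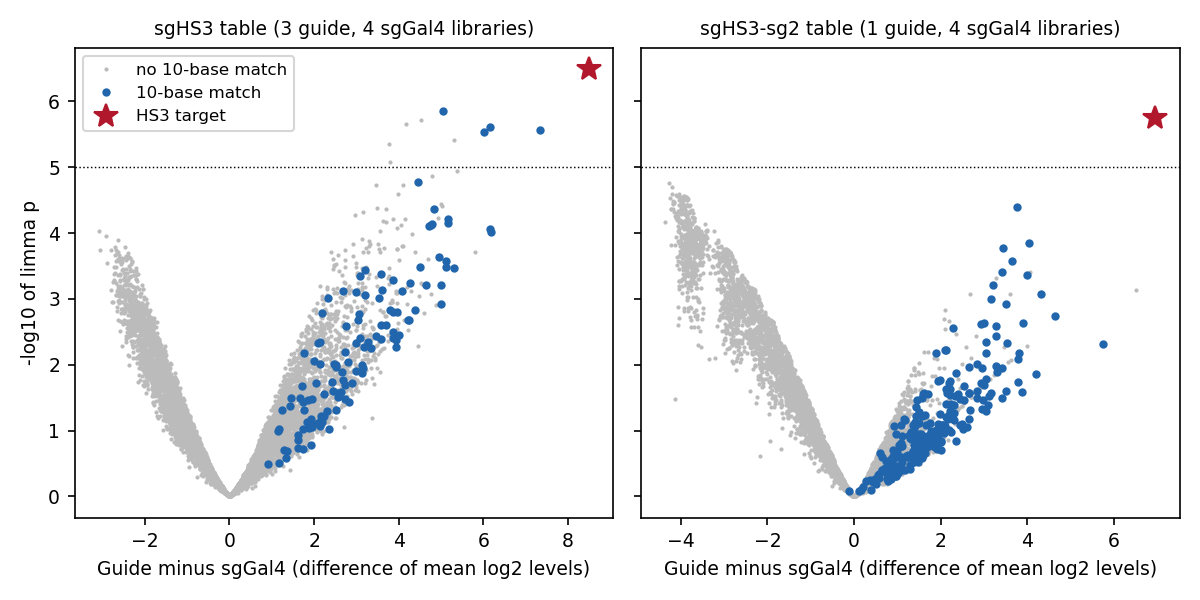
Difference of mean log2 levels, guide minus sgGal4 (horizontal axis), against -log10 of the limma p (vertical axis) for every listed region, with 3 guide libraries on the left and 1 on the right. The star is the HS3 target, blue points are regions outside the cluster that hold the 10 PAM-proximal bases and NGG, grey points are all others and the dotted line is a p of 1e-05. None of the 121 blue points on the left and 1 of the 239 on the right lies below 0, and none is among the regions that fell. Such regions may be listed because of their reads in the guide libraries.

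The regions elsewhere shared letters with HS3. All 52 protospacers with an NGG on either strand of the sgHS3 region were searched for in the 9 regions by their 10 PAM-proximal bases followed by NGG. The one marked above was found in 4 of the 9 (44.4%), the next most frequent in 2, and among the 7767 other regions 117 (1.51%) held it. It was chosen for this count, so the 4 of 9 are a description. The sites below are those with the longest unbroken match from the PAM in each of the 9 regions, read in the direction of the protospacer, with the final 3 bases being the PAM. In the first line capitals mark the 10 PAM-proximal bases, and in the others the bases identical to the protospacer.
HS3 protospacer, chr11:5305921-5305943, minus strand: gagagatagaCCATGAGTAGagg
HIVEP2, chr6:142942972-142942994, minus strand: GgagtcTAGACCATGAGTAGagg
GRM8, chr7:126342664-126342686, minus strand: actActataACCATGAGTAGggg
FAM83C, chr20:33887748-33887770, minus strand: tcagGtggGACCATGAGTAGggg
MEF2A, chr15:100155105-100155127, plus strand: atGAGgagttCCATGAGTAGagg
FAM20B, chr1:179016305-179016327, plus strand: GAGgccagactgATGAGTAGggg
SPATS2, chr12:49822866-49822888, minus strand: agctGtagatgtggGAGTAGagg
MAP3K5, chr6:136931604-136931626, plus strand: ttatttatattgtgGAGTAGggg
EHBP1, chr2:63194342-63194364, plus strand: atttGgctGcagggGAGTAGtgg
WASF2, chr1:27814692-27814714, minus strand: ttGttcTcatatgTcAGTAGtgg
The unbroken match was 14 bases at HIVEP2, 12 at FAM83C, 11 at GRM8, 10 at MEF2A, 8 at FAM20B, 6 at SPATS2, MAP3K5 and EHBP1 and 5 at WASF2. All 9 sites were centred 6.5 to 17.5 bp from the middle of their 300 bp region. A match is a description of the letters and does not show where Cas9 was bound.

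Among the other 6 leading regions, ID2 held an unbroken match of 13 bases, USP12 12, FGD5 and SEMA3D 11, and CAPN7 and ANK1 7. The longest of these are shown for comparison with the 9 above.
ID2, chr2:8843300-8843322, plus strand: cAGAaAgAGACCATGAGTAGggg
USP12, chr13:27527895-27527917, plus strand: atGgacctGACCATGAGTAGcgg
FGD5, chr3:14864931-14864953, minus strand: GAGAGAagaACCATGAGTAGggg
SEMA3D, chr7:85264326-85264348, minus strand: cAaAcAccaACCATGAGTAGtgg
The FGD5 and ID2 sites match the protospacer at 17 of 20 bases and that of HIVEP2 at 15, while the difference was largest at HIVEP2. The PAM differs between the sites and is not part of the guide.

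The share of regions with the 10 bases and NGG was highest at the top of the table. Ranked by difference, 7 of the first 10 regions held them, 18 of the next 40 (45.0%), 22% of ranks 51 to 100, 14% of ranks 101 to 200, 8.67% of ranks 201 to 500, 4.80% of ranks 501 to 1000 and 0.310% of the remaining 6775. In all, 121 regions held them, with a median difference of 2.75 against 0.13 for the regions without. None of the 121 was below 0, 120 were at 1 or more, 61 were among the 500 that rose (12.2% of those, against 1.56% of all regions) and 0 among the 759 that fell. Over the 17 tables, regions with these bases were listed only with sgHS3 and sgHS1-5 (0.711% of its regions). They may thus be listed because of their reads in the guide libraries. Their direction and their share by rank are therefore a description. Within the 121, the 17 with an unbroken match of at least 12 bases had a median difference of 4.72 and the other 104 one of 2.61. In the top 50 the 25 sites lay at most 43.5 bp from the middle of the region, with a median of 9.5 bp.

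Shorter matches were counted with a rule chosen after seeing the data, an unbroken match of at least 6 bases and NGG in a site centred within about 25 bp of the middle. Such a site was present in 90.0% of the first 10 regions, 80.0% of ranks 11 to 50, 74% of ranks 51 to 100, 58% of ranks 101 to 200, 45.3% of ranks 201 to 500, 30.0% of ranks 501 to 1000 and 2.91% of the rest. The same rule with the protospacer of sgHS3-sg2 found 0 regions down to rank 500 and 5 in all. Of the 619 regions with a central match of at least 6 bases, 514 did not hold the 10 bases. The stretch of 6 bases, GAGTAG before NGG, is what SPATS2, MAP3K5 and EHBP1 share with HS3.

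**Figure D3:**
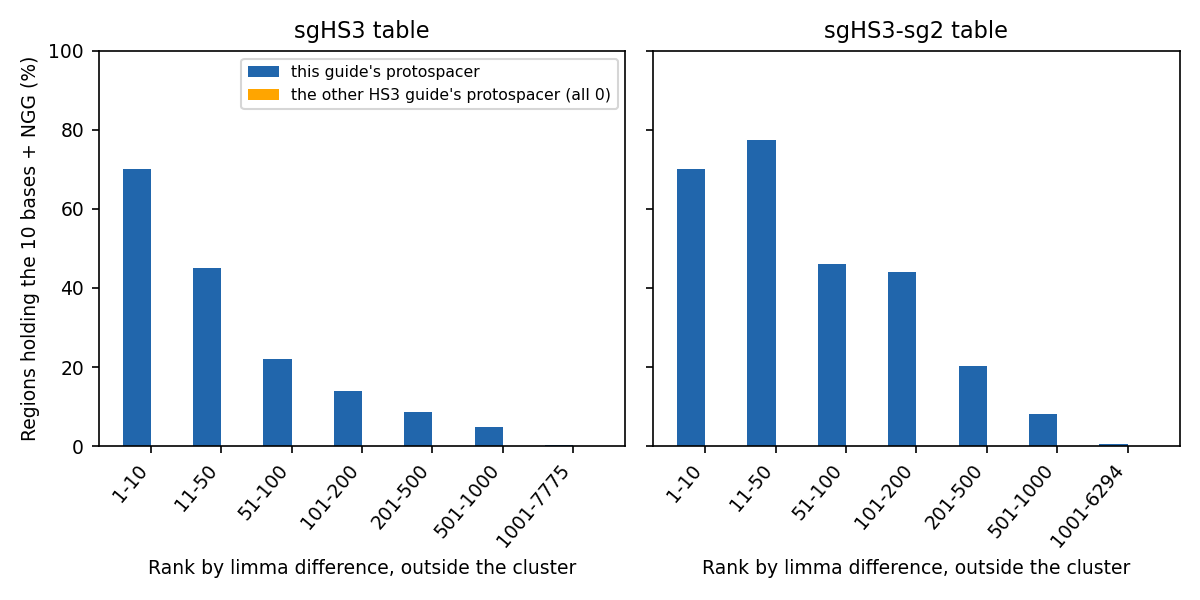
Percent of regions that hold the 10 PAM-proximal bases and NGG of a protospacer (vertical axis), by rank of the difference outside the globin cluster (horizontal axis), for sgHS3 on the left and sgHS3-sg2 on the right. Blue bars are for the protospacer of the guide's own HS3 region, and bars for the other guide's protospacer are at 0 in every class. The blue bars reach 70.0% in the first 10 regions of both tables and 77.5% at ranks 11 to 50 on the right, and are under 1% beyond rank 1000. The first 10 regions include regions by which each protospacer was chosen.

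The sgHS3 libraries differed in how their reads were spread over these regions. Over all listed regions, replicate 1 had 2.00 times the mean reads of replicates 2 and 3, and at HS3 7.21 times. In regions that rose at an adjusted p below 0.05 and held at least 20 reads in replicates 2 and 3 together, the median of this ratio was 6.29 for a central match of 12 or more bases (n = 14), 6.28 for 10 or 11 (n = 24), 3.0 for 8 or 9 (n = 11), 2.00 for 6 or 7 (n = 139) and 1.15 below 6 (n = 172). The class below 6 includes FGD5 (ratio 6.93), NQO2 (3.28) and TPP2 (3.15). These hold at least 10 unbroken bases in sites 43.5, 37.5 and 24.5 bp from the middle, not counted as central. The rule placed the middle of a site slightly to one side, which left out the TPP2 site although it lies within 25 bp. Over all 959 regions with as many reads the median ratio was 0.923. The reads that entered this ratio also entered the choice of regions, and regions of 1 library are not replicates, so the values are given without a test. The same is seen in reads as a percent of those at HS3. For HIVEP2 these were 39.7%, 41.8% and 51% in replicates 1 to 3 (44.1% ± 6.06, SD, n = 3), and for FAM83C 25.5%, 24.7% and 29.9%. For MAP3K5 they were 2.40%, 10.2% and 13.4%, and for EHBP1 1.23%, 6.17% and 8.44%, lowest in replicate 1. When regions were ranked on 1 sgHS3 library at a time, 35, 14 and 18 of the top 50 held the 10 bases in replicates 1, 2 and 3.

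**Figure D4:**
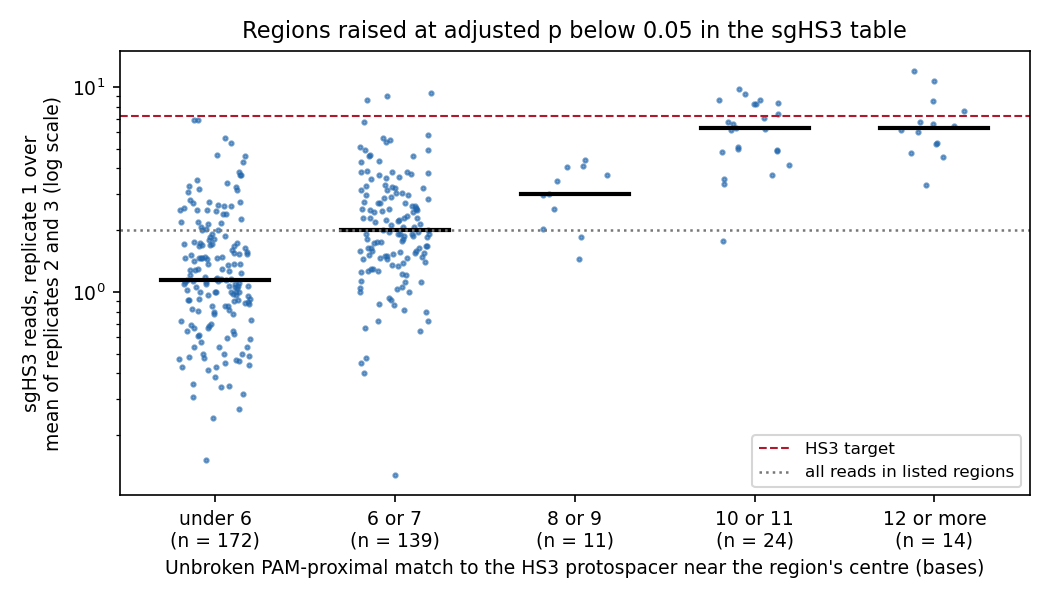
Ratio of the reads in sgHS3 replicate 1 to the mean of replicates 2 and 3 (log axis) for regions that rose with sgHS3, grouped by the length of the unbroken PAM-proximal match near the middle of the region. Points are regions, black bars medians, the dashed line is the ratio at HS3 (7.21) and the dotted line that of all listed reads (2.00). The medians rise from 1.15 below 6 bases to 6.29 at 12 or more. A region whose longer match lies further from the middle is placed by its central match.

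The authors tagged 5 regions as off-target sites of sgHS3 in their deposited table. Their sites match the protospacer at 16 or 17 of 20 bases, against at most 15 in the 9 regions above, and their differences run from 0.53 to 5.11. The region in an exon of TMC4, nearest to LENG1, held 161, 18 and 24 reads against 0 in every sgGal4 library (difference 5.11, adjusted p = 0.0215). The PTPRD region held 142, 8 and 3 reads, also against 0 in every sgGal4 library (3.94, adjusted p = 0.0404), and the fitted differences of these 2 depend on the level given to 0 reads. The CORO1C region held 77, 15 and 17 against 2, 1, 1 and 0 (3.61, adjusted p = 0.0246), and the AMN1 region 36, 6 and 5 against 3, 3, 0 and 0 (2.25, adjusted p = 0.0330, limma). The NRXN2 region held 2, 6 and 8 reads against 5, 5, 0 and 2 (0.53, adjusted p = 0.578). PTPRD encodes a receptor tyrosine phosphatase and CORO1C an actin-binding coronin. The sites show where the matches lie.
TMC4, chr19:54667626-54667648, plus strand: GcGgGATgGACCATGAGTAGagg
PTPRD, chr9:8491035-8491057, plus strand: tAGgGATAaACCATGAGTAGcgg
CORO1C, chr12:109043015-109043037, plus strand: GAGAcAagaACCATGAGTAGagg
AMN1, chr12:31885035-31885057, minus strand: cAaAGATAaACCATGAaTAGcgg
NRXN2, chr11:64455899-64455921, plus strand: GAGAGAgAGAaCcTGAGTAGggg
The sites in TMC4, PTPRD and CORO1C keep 11 or 12 unbroken bases, that of AMN1 3 and that of NRXN2 7. The NRXN2 site is centred 90.5 bp from the middle of its region and the AMN1 site 14.5 bp. In all 4 regions that rose, replicate 1 held the most reads, and each of the 4 lost its call without any one of the sgHS3 replicates, CORO1C also without sgGal4 replicate 1, and PTPRD and AMN1 without sgGal4 replicate 1 or 2. AMN1 also lost it on log2(reads + 1).

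With the second guide, no region outside the cluster was raised at a limma p of at most 1e-05 (0 of 6294, 0%), against 196 at an unadjusted p below 0.05 and 1 with a mean-variance trend. At an adjusted p below 0.05, 70 regions (1.11%) were called higher and 1955 (31.1%) lower, with a median difference of -0.54 over all regions. The guide has 1 library, so these calls have no replicate of it and assume that it varies like the sgGal4 libraries. With columns shifted to a common median, the median over all regions was -0.12, and 239 rose and 1602 fell. On log2(reads + 1) 14 rose and 582 fell, and without sgGal4 replicate 1 28 rose. The leading region was in an intron of SLC2A3, a glucose transporter gene, at chr12:8167470-8167769, with 472 reads against 0, 0, 0 and 1 in sgGal4 (difference 6.51, SE 1.13, adjusted p = 0.00578). The GCM1 region, chr6:53053284-53053583, held 356 reads against 0, 0, 4 and 1 (5.76, SE 1.41, adjusted p = 0.0192), and GCM1 encodes a transcription factor of the placenta. The next 8 held 73 to 175 reads, with at most 3 in any sgGal4 library, and are nearest to NOL4, POMGNT2, TFCP2, AAMDC, DCTD, MED27, PDCD2 and LRRTM3. TFCP2 encodes a factor known for binding the alpha-globin promoter, and its region, 1503 bp from the start, held 104 reads against 0, 0, 3 and 0 (4.20, SE 1.28, adjusted p = 0.0433, limma). That call was lost without sgGal4 replicate 1, 2 or 4, and those of GCM1 and PDCD2 without replicate 1. GCM1, NOL4, TFCP2, PDCD2 and LRRTM3 also lost theirs on log2(reads + 1).

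Of 28 protospacers in the sgHS3-sg2 region, the one marked above was found in 7 of these 10 regions, the next most frequent in 0. It was chosen for this count, so the 7 of 10 are a description. Of the other regions, 232 of 6285 (3.69%) held its 10 PAM-proximal bases and NGG. Exact matches of 6 regions and the near match of SLC2A3 are shown because they end at the same base.
HS3 protospacer of sgHS3-sg2, chr11:5306222-5306244, minus strand: aggaatcattCTGTGGATAAagg
GCM1, chr6:53053409-53053431, plus strand: AacttatcccCTGTGGATAAggg
POMGNT2, chr3:43144775-43144797, minus strand: AGcccTtgagCTGTGGATAAggg
TFCP2, chr12:51568558-51568580, plus strand: AaatgTgtgaCTGTGGATAAagg
MED27, chr9:134917926-134917948, minus strand: gGccActAgaCTGTGGATAAagg
DCTD, chr4:183850601-183850623, minus strand: gcaggagtTaCTGTGGATAAtgg
LRRTM3, chr10:67480026-67480048, minus strand: AacAcatATcCTGTGGATAAggg
SLC2A3, chr12:8167626-8167648, minus strand: tGGggaaAgaCTGTGGgTAAcgg
All 7 exact matches, that of NOL4 included, were 10 unbroken bases long, and no region of the 10 matched at 12. SLC2A3 differs from the protospacer at 1 of the 10 bases. AAMDC and PDCD2 held neither the 10 bases nor a form with 1 mismatch.

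In the sgHS3-sg2 table as a whole, 239 regions held the 10 bases, with a median difference of 1.69 against -0.66 for the others. Of these, 192 were at 1 or more, 1 was below 0, 34 were among the 70 that rose (48.6% of those, against 3.80% of all regions) and 0 among the 1955 that fell. Elsewhere such regions were listed only with sgHS1-5 (0.00592% of its regions) and sgHS4 (0.00932%). They may thus be listed because of their reads in the guide library, and the counts are a description. By rank the 239 made up 70.0% of the first 10, 77.5% of ranks 11 to 50, 46% of ranks 51 to 100, 44% of ranks 101 to 200, 20.3% of ranks 201 to 500, 8.00% of ranks 501 to 1000 and 0.623% of the rest. A match of at least 12 bases went with no larger value here, with a median of 1.68 for 17 regions and 1.69 for the other 222. Few regions of this table had a shorter central match alone, 46 of the 210 with at least 6 bases. The authors' deposited table tags 2 regions as off-target sites of this guide. The ZFP36L1 region held 78 reads against 3, 4, 1 and 0 (3.16, adjusted p = 0.00657), and the TMEM132B region held 34 against 0, 0, 0 and 2 (2.66, adjusted p = 0.152, limma).

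The leading regions were looked up in the other tables, all of which use the same sgGal4 libraries, so differences in them are not independent. None of the 15 leading regions of sgHS3 overlapped a listed region of the sgHS3-sg2 table, and none of the 10 of sgHS3-sg2 overlapped one of the sgHS3 table. No listed region of either table outside the cluster held the 10 bases and NGG of the other guide's protospacer. Among the top 50 regions of the 17 tables of the series, the 10 bases of sgHS3 were found in 25 of sgHS3, 22 of sgHS1-5 and 0 of each other table. Those of sgHS3-sg2 were found in 38 of its own and 0 of every other table.

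The libraries labelled sgHS1-5, named for all 5 hypersensitive sites, are the only others in which HS3 is listed. The region there, chr11:5305782-5306081, held 2045, 3741, 92, 99, 2186 and 3841 reads in replicates 1 to 6. All 15 leading regions of sgHS3 were listed in that table as well. Regions that overlap 3 of them were listed in further tables. FAM20B was listed with sgHBD-1kb (33 and 23 reads against 1, 8, 1 and 2 in sgGal4, difference 2.46), sgHS1-sg2 (0.28) and sgHS4 (0.25), SPATS2 with sgHS5 (4, 19 and 15 reads against 1, 2, 0 and 0, difference 1.71) and ANK1 with sgHS2-sg2 (0.16). The FAM20B regions of sgHBD-1kb and sgHS1-sg2 overlap only in part, starting at 179016399 and 179016424. They do not contain the 8-base site shown above. With sgHS1-5 the HIVEP2 region held 491, 859, 7, 11, 520 and 814 reads, GRM8 167, 352, 6, 5, 687 and 860, and FAM83C 248, 468, 10, 5, 670 and 932. As a percent of the reads at HS3, GRM8 ran from 5.05% in replicate 4 to 31.4% in replicate 5 and HIVEP2 from 7.61% in replicate 3 to 24.0% in replicate 1. The highest sgGal4 library held 4 to 7 reads in these regions. In replicates 3 and 4 the region of SEMA3D held 0 reads, and that of SPATS2 0 and 1. Of the leading regions of sgHS3-sg2, 1 was listed with sgHS1-5, that of AAMDC with 4, 3, 2, 0, 1 and 1 reads. The AAMDC and PDCD2 regions, which lack the 10 bases, are also listed with sgHBG, a guide to the gamma-globin genes. There they held 115, 22, 91 and 177 reads and 89, 24, 97 and 179 reads in its 4 libraries and ranked 14 and 6 of 6808.

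**Figure D5:**
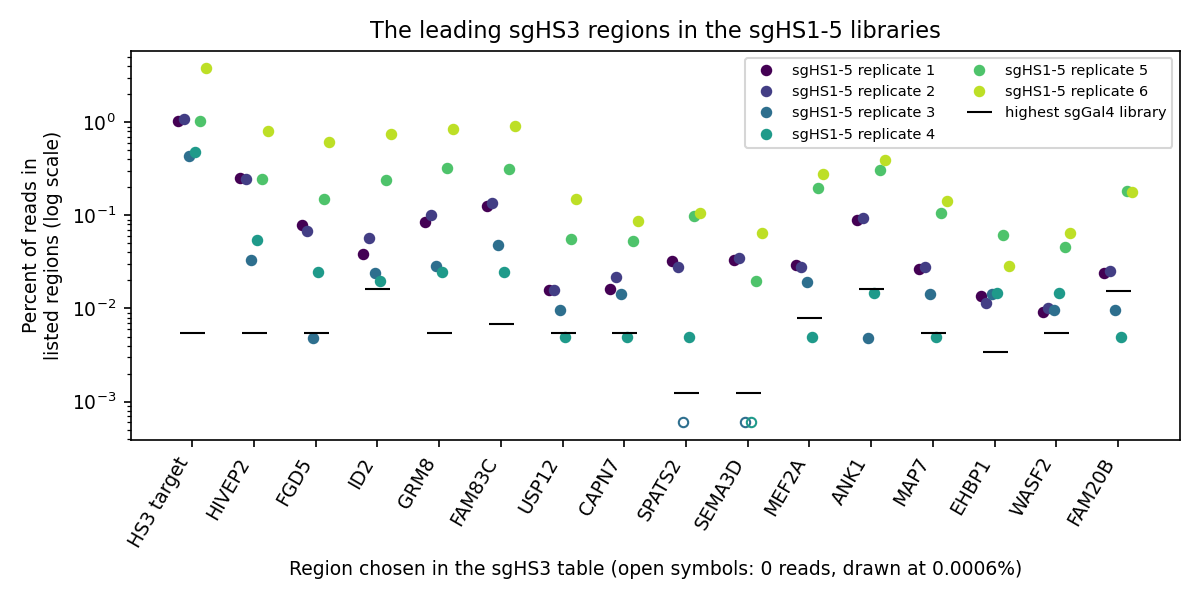
Percent of the reads in listed regions (log axis) in the 6 sgHS1-5 libraries, for the HS3 target and the 15 leading regions of sgHS3, with 0 reads as open symbols. Black bars mark the highest sgGal4 library. Replicates 5 and 6 lie above that bar in all regions, and replicates 3 and 4 lie near or below it in several.

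Regions near erythroid regulators were looked up for 15 genes of the factors that bind the locus control region or act with them, such as GATA1, TAL1, KLF1 and NFE2. With sgHS3, 5 regions near 4 of the genes (BACH1, GATA2, GFI1B and LDB1) were listed, with a median difference of -0.40 against 0.17 over all regions, and 1 rose and 0 fell, where 6.43% of all regions rose and 9.76% fell. It lies in an intron of LDB1, which encodes the protein that links GATA1 complexes at the locus control region to the globin promoters, 759 bp from its start (chr10:103873645-103873944). It held 28, 17 and 8 reads with sgHS3 against 3, 9, 0 and 1 in sgGal4, where replicate 2 was above sgHS3 replicate 3 in reads (difference 2.14, SE 0.539, adjusted p = 0.0299, limma). The call was lost without any one of the sgHS3 replicates, without sgGal4 replicate 1 or 2 and on log2(reads + 1). Its longest match to the HS3 protospacer was 6 bases, in a site centred 11.5 bp from the middle. It thus meets the rule for short central matches given above. With sgHS3-sg2, 4 regions near 4 of the genes were listed, with a median of -0.64 against -0.54 over all, 0 rose and 1 fell, where 1.11% of all regions rose and 31.1% fell. The GATA2 region, which passed, held 3 reads against 12, 15, 1 and 0 (-1.75, SE 0.486, adjusted p = 0.0311, limma), more than 2 of the 4 sgGal4 libraries. That call was lost with columns shifted to a common median, on log2(reads + 1) and without sgGal4 replicate 1, 2 or 3. With sgHS3 the same region held 7, 5 and 0 reads (-0.55, adjusted p = 0.533, limma). For GATA1, TAL1, LMO2, KLF1, NFE2 and BCL11A no listed region of either table had theirs as the nearest start within 10 kb.

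The regions that fell had few reads in the guide libraries. With sgHS3 the 759 had a median of 1 read over the 3 guide libraries and 27 over the 4 sgGal4 libraries, against 16 and 21 over all regions, and 212 had 0 reads in every guide library. The 3 lowest were an intergenic region nearest to ACVR2A with 0, 0 and 0 reads against 10, 22, 2 and 4 (-3.08, adjusted p = 0.0189), one in an intron of RANBP3L with 0, 1 and 0 against 17, 34, 3 and 2 (-3.05, adjusted p = 0.0215) and an intergenic one nearest to SCAF11 with 0, 0 and 0 against 10, 18, 3 and 2 (-2.92, adjusted p = 0.0206, limma). Where all guide libraries are at 0, the fitted value depends on the level given to 0 reads. These 3 also lost their calls without any one of the sgHS3 replicates. With sgHS3-sg2, 555 of the 1955 had 0 guide reads, and 52.1% lay between genes, against 44.8% of all regions.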

How the data were processed

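The submitters' processing notes name Bowtie 1.0.0, Picard and the build hg19, and the labels state that reads with a single genomic location were kept. How regions were called and levels normalised is not given in the sources used here. The authors deposited log2 levels per library and region, with their own M value and on-target and off-target tags. The headers state no unit. In each column the levels follow the log2 of whole numbers along a line with its own start and slope, and 100% of values came out whole within 0.01. That number less 1 was read as reads.

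The levels of guide and sgGal4 libraries were compared with limma 3.58.1 in R 4.3.3 within each table, as the difference of mean log2 levels, with empirical Bayes moderation, no mean-variance trend and Benjamini-Hochberg adjustment over all regions of the table. A test for counts was not used, since the deposited values are levels. The fit was run on simulated reads with the same dispersion in all libraries. That does not show how it performs on these libraries, and the spread of the single sgHS3-sg2 library cannot be seen. Motifs and sites were read from GRCh37 with pysam 0.24.0, and genes are the protein-coding genes of GENCODE 44 lifted to GRCh37. The on-target region was the one with the largest difference centred within 1500 bp of HS3. The globin cluster was left out of counts of regions elsewhere. Named regions are the on-target regions, all others in the cluster, those past the strict limit, the 10 largest differences of each table, the authors' tagged regions, list genes that passed and the 3 lowest. The 10 largest differences of sgHS3 were added after their values were seen. The regions, gene list and tests were chosen with earlier results of these data known.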

Additional observations from a re-analysis of the deposited data

Results flagged for a closer look

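The groups of values tested numbered 57. They were the sgGal4 levels at each named region and the sgHS1-5 percents at HS3 and the 15 leading regions of sgHS3. In 8 of them 1 sample was set apart from the others by a wide gap relative to the range. Chance gives about 1 in 20. All 8 were sgHS1-5 groups, so their share among the sgHS1-5 groups was higher than 8 of 57. Replicate 6 was the highest at HS3, named here by HBE1, with 3.79% of the reads in listed regions against 1.07% in the next library. It was also highest at HIVEP2 (0.804% against 0.249%), GRM8 (0.850% against 0.327%), FAM83C (0.921% against 0.319%), FGD5 (0.622% against 0.149%), ID2 (0.757% against 0.243%) and USP12 (0.149% against 0.0561%). At EHBP1 replicate 5 stood apart, with 0.0623% against 0.0287%. These groups share their libraries and are not independent.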

How the results depend on the processing

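The HS3 difference kept its call in every setting run, from 6.66 to 9.04 with sgHS3 and from 5.92 to 7.38 with sgHS3-sg2. The counts moved, and the cause was not tested. With sgHS3, columns shifted to a common median gave 31 regions at the strict limit, 884 raised and 1161 lowered, and a mean-variance trend in limma gave 23 at the strict limit and 458 lowered. On log2(reads + 1), 275 were raised and 2221 lowered, and with 5 added 16 and 0. Leaving out 1 library gave 0 to 7 at the strict limit, 8 to 818 raised and 0 to 641 lowered. The labels share replicate numbers between sgHS3 and sgGal4. The deviations of same-numbered libraries correlated at -0.024, 0.022 and 0.0035, and those of other pairs at -0.042 to 0.040. This gives no sign of pairing but cannot exclude it, since sgGal4 replicate 3 is shallow. With a replicate block 3 regions passed the strict limit and 1037 were raised. The LDB1 region left the calls (0 regions) on log2(reads + 1) and with 5 added, and leaving out 1 library gave 0 to 1. With sgHS3-sg2, log2(reads + 1) gave 14 raised and 582 lowered, with 5 added 0 and 0, a common median 239 raised, a minimum of 20 reads 134 raised, and the trend 120 raised and 1 at the strict limit. Leaving out 1 sgGal4 library gave 28 to 84 raised. Matches of 12 bases were in 0% of its top 10. Ranked on 1 library, 70.0% and 28.0% of the top 50 of sgHS3 held the 10 bases in replicates 1 and 2, an alternative chosen after seeing the data, as were the matches with 1 mismatch and of 6 central bases. NRXN2 turned negative on log2(reads + 1) (-0.22) and with 5 added (-0.67), and the cause was not tested. For 39 named regions, 391 of 490 alternatives kept direction and call, 96 lost the call, 1 gained it and 2 turned direction. The alternatives, at HS3 as well, include the log2 ratio of mean linear levels. That setting kept the limma p-values of the main fit, so it could not change a call. The shallow sgGal4 replicates 3 and 4 limit what can be seen at low read numbers.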
